A study of Mus musculus with 8 samples.

Results

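The genes of the switch that turns a bipotential XY gonad towards a testis were followed in mouse gonads labelled null for Kdm6b, which encodes a demethylase that removes the repressive methyl marks of histone H3 lysine 27. The set holds 8 genes, Sry, Sox9, Sox8, Fgf9, Fgfr2, Amh, Dmrt1 and Ptgds, which were matched by gene name, and all 8 were found among the 48440 genes measured. Polyadenylated RNA of gonads at embryonic day 11.5 was sequenced in 8 libraries, 2 for each of 4 groups: XY Kdm6b-null, XY wild type, XX Kdm6b-null and XX wild type. Each library pooled 2 pairs of gonads. The labels describe the null genotype as a Kdm6b knockout, and they give neither the deleted part of the gene, nor the strain, nor the litters. The p-values therefore measure the spread between these pools only. The labels also name pre-Sertoli cells for XY and pre-granulosa cells for XX, yet the tissue is labelled gonad and no sorting is described there, so whole gonads were taken to have been measured.

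In mammals Sry, carried by the Y chromosome, is switched on briefly in the supporting cell precursors of the XY gonad. Its protein binds DNA through an HMG box and raises transcription of Sox9, which then keeps itself on through loops with FGF9 and its receptor FGFR2 and with prostaglandin D2, the product of the PTGDS enzyme. Sox8 is a close relative of Sox9 that acts beside it, DMRT1 keeps the testis fate later on, and AMH is the Sertoli cell hormone that makes the Müllerian ducts regress. In the mouse, Sry is at its height near the stage sampled here, whereas Amh starts later.

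The HMG boxes of the 3 SOX genes are shown because the relay from Sry to Sox9 runs between genes of 1 sequence family, whose reads could in principle be confused. The lines give 210 coding bases each, read from the GENCODE M21 transcripts (GRCm38), 5′ to 3′, and capitals in Sox9 and Sox8 mark bases that differ from Sry.
Sry: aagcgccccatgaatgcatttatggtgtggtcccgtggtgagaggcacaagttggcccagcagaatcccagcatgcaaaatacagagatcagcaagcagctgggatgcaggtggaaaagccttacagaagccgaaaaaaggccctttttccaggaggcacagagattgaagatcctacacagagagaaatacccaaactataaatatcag
Sox9: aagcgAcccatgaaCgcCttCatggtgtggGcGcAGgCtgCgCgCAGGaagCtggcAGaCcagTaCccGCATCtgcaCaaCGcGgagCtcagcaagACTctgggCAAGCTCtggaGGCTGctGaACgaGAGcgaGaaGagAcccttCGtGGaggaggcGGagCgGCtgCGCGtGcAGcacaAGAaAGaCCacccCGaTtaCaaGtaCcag
Sox8: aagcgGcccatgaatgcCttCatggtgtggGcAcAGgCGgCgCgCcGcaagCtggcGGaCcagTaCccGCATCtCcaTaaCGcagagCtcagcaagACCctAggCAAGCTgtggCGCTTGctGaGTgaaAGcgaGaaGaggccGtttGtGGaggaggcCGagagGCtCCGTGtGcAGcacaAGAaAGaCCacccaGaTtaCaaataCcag
Within the box, Sox9 had the same base as Sry at 126 positions, or 60% of them, and Sox8 at 131 positions, or 62.4%. Over the whole transcripts, the longest identical run was 13 bases between Sry and either gene and 23 bases between Sox9 and Sox8, against reads of 100 bases. Sry lies at Y:2662471-2663658 on the minus strand, annotated as a single exon, with the box in its coding sequence. This exon and the coding sequence with its stop are both 1188 bases long, so the annotation holds no untranslated part of Sry. Reads from untranslated ends would fall outside it. Sox9 lies at 11:112782224-112787760 on the plus strand and Sox8 at 17:25565892-25570686 on the minus strand (all GRCm38). No other annotated gene overlaps Sry or Sox9, and 1 gene on the opposite strand overlaps Sox8.

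Some libraries stood apart and bear on the values that follow. The libraries held 19107103 to 19828638 counts each, so depth was nearly even. XX wild type library 1 was high in markers of the adrenal cortex: 6 of them summed to 463 and 566 normalized counts in the XX Kdm6b-null libraries, against 1788 and 342 in XX wild type. Cyp11b1, an enzyme of adrenal steroid synthesis, had 417 normalized counts in that library and 7.08 in the other XX wild type library. Among the XY libraries, Kdm6b-null library 2 was high in erythroid markers, with 6 of them summing to 159100 normalized counts. The sums were 53500 in the other XY Kdm6b-null library and 46310 and 74870 in XY wild type. In the separately normalized XX table the same 6 summed to 93610 and 87780 in Kdm6b-null, against 152100 and 191600 in wild type. Kdm6b itself had 1238 and 1037 normalized counts in XY Kdm6b-null, against 3399 and 3181 in XY wild type. In XX it had 1249 and 1125 in the Kdm6b-null libraries, against 2218 and 2796 in wild type. Its transcripts thus remained at 34.6% of the wild type mean in XY and 47.4% in XX, the genotypes did not overlap in either sex, and the DESeq2 adjusted p in the authors' deposited tables was 8.2e-25 in XY and 7.1e-07 in XX. In limma, the test used for the members below, Kdm6b did not pass after adjustment (limma adjusted p = 0.12 in XY and 0.19 in XX). A member that does not pass in limma is therefore not shown to be unchanged.

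Sry was the member with the widest gap between genotypes in XY gonads. It had 19.5 and 6.18 normalized counts in the XY Kdm6b-null libraries, against 57.4 and 73.8 in XY wild type. Both null libraries lay below both wild type libraries, at 29.8% and 9.42% of the wild type mean. The log2 fold change was -2.45 with a standard error of 0.55 and a 95% interval of -3.82 to -1.07 (limma on log2(normalized count + 1), a scale that understates changes of low genes). The difference did not pass after Benjamini-Hochberg adjustment over all genes (limma adjusted p = 0.69, before adjustment 0.00543). In the authors' deposited table Sry had a log2 fold change of -2.35 with a standard error of 0.66, and its DESeq2 adjusted p was 0.084. In whole gonads, fewer cells that express a gene and less of its RNA per cell cannot be told apart.

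The counts behind Sry were small. They were 20 and 6 in the XY Kdm6b-null libraries and 58 and 74 in XY wild type. Their 95% exact Poisson intervals ran from 12.2 to 30.9 and from 2.2 to 13.1 in the null libraries, and from 44 to 75 and from 58.1 to 92.9 in wild type, and cover counting error only. The intervals of the null libraries thus lay below those of wild type. The 2 null libraries also differed from each other by a factor of 3.16, and the lower one is the library high in erythroid markers. Without that library the log2 fold change was -1.69, and without the other null library it was -3.20. Sry was at 0 in all 4 XX libraries, which matches the labelled sexes. The same kind of interval reaches 3.69 counts there, or 3.58 to 3.73 normalized counts.

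**Figure D1:**
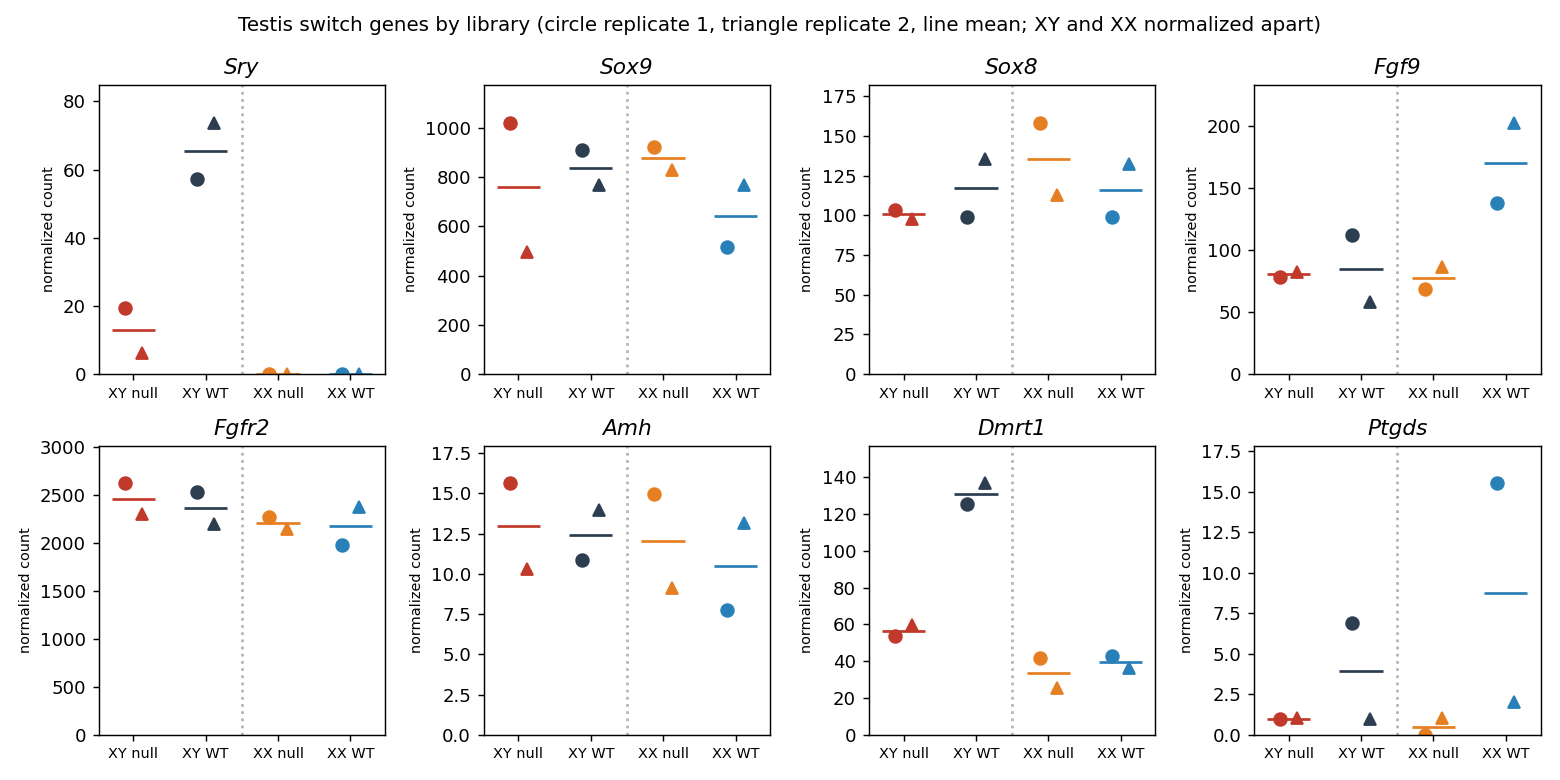
Normalized counts of the 8 switch genes by library (vertical axes in normalized counts, a panel per gene), with XY Kdm6b-null, XY wild type, XX Kdm6b-null and XX wild type left to right. Circles are replicate 1, triangles replicate 2 and lines their means, and XY and XX were normalized separately. Sry and Dmrt1 lie lower in both XY Kdm6b-null libraries than in either XY wild type library, Fgf9 lies lower in both XX Kdm6b-null libraries, Sox9 lies higher in both, and the groups of the other members overlap or rest on few counts (Ptgds).

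Sox9, the gene that SRY acts on, showed no such gap. It had 1021 and 495 normalized counts in XY Kdm6b-null, against 910 and 767 in XY wild type. The 2 null libraries lay on either side of the wild type pair, at 122% and 59.1% of its mean. Group means were 758 ± 372 in XY Kdm6b-null and 838 ± 101 in XY wild type (SD, n = 2 each). The log2 fold change was -0.23 with a 95% interval of -1.07 to 0.60 (limma adjusted p = 1.00), which leaves room for a lower as well as a higher level. The null libraries differed by a factor of 2.06, against 1.19 in XY wild type. The lower of the 2 was again the library high in erythroid markers, and without it the log2 fold change of Sox9 was 0.29, with -0.75 when the other null library was left out. For each normalized count of Sry there were 52.3 and 80.2 of Sox9 in XY Kdm6b-null, against 15.9 and 10.4 in XY wild type. These ratios restate the gap in Sry, and those of the null libraries rest on 20 and 6 counts of Sry.

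In XX gonads, which have no Sry, Sox9 had 923 and 828 normalized counts in XX Kdm6b-null and 515 and 769 in XX wild type. Both null libraries were above both wild type libraries, at 144% and 129% of the wild type mean. The log2 fold change was 0.47 with a 95% interval of -0.05 to 0.99 (limma adjusted p = 0.39). In the authors' deposited table it was 0.45 with a DESeq2 adjusted p of 0.40. The size rested on 1 control. Without XX wild type library 1, the library high in adrenal cortex markers, the log2 fold change was 0.19 (limma adjusted p = 0.37), and without XX wild type library 2 it was 0.76 (limma adjusted p = 0.0067), in a fit that assumed the lone wild type library to vary like the others and called 3550 of 16953 genes. The part of adrenal cells in this value was not tested. The XY effect of Sox9 minus its XX effect was -0.71 with a 95% interval of -1.77 to 0.35 (limma adjusted p = 0.69). The levels of Sox9 in the 4 groups were of like size, but the XY and XX tables were normalized separately, and no test was made between them.

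Sox8 showed overlapping groups in both sexes. It had 103 and 97.8 normalized counts in XY Kdm6b-null and 98.9 and 136 in XY wild type. The log2 fold change was -0.20 with a 95% interval of -0.77 to 0.36 (limma). In XX Kdm6b-null it had 158 and 113 normalized counts, against 99.0 and 132 in XX wild type, a log2 fold change of 0.22 with an interval of -0.43 to 0.88.

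Fgf9, the secreted ligand of the loop with Sox9, lay lower in both XX Kdm6b-null libraries, whereas its XY groups overlapped. It had 78.0 and 82.3 normalized counts in XY Kdm6b-null, between the 112 and 57.8 of XY wild type. The XY wild type libraries alone differed by a factor of 1.93, and the log2 fold change was -0.01 with a 95% interval of -0.88 to 0.87 (limma). In XX it had 68.8 and 85.9 normalized counts in Kdm6b-null and 138 and 202 in wild type. Both XX Kdm6b-null libraries lay below both XX wild type libraries, at 40.4% and 50.5% of the wild type mean. The log2 fold change there was -1.11 with a standard error of 0.26 and a 95% interval of -1.78 to -0.44 (limma adjusted p = 0.26, before adjustment 0.00733). The authors' deposited table gave -1.14 with a DESeq2 adjusted p of 0.077. Without XX wild type library 1 the log2 fold change was -1.38 (limma adjusted p = 0.035), and without XX wild type library 2 it was -0.83 (limma adjusted p = 0.070). These fits again assumed the lone wild type library to vary like the others, and called 621 of 16824 and 3550 of 16953 genes. Fgf9 lies at 14:58070547-58112337 on the plus strand (GRCm38), and 1 annotated gene on the opposite strand overlaps it.

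The XY effect of Fgf9 minus its XX effect was 1.10 with a 95% interval of 0.0037 to 2.20. It did not pass after adjustment (limma adjusted p = 0.60, before adjustment 0.0494). Such an unadjusted p with a positive difference was seen in 2.74% of the 17282 genes tested. The group means of Fgf9 were 80.2 ± 3.05 normalized counts in XY Kdm6b-null, against 84.8 ± 38.2 in XY wild type (SD, n = 2 each). In the separately normalized XX table they were 77.3 ± 12.1 in Kdm6b-null, against 170 ± 45.6 in wild type (SD, n = 2 each).

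Fgfr2, the receptor that FGF9 signals through, had the narrowest intervals of the members tested. It had 2624 and 2308 normalized counts in XY Kdm6b-null, against 2537 and 2197 in XY wild type. In XX it had 2277 and 2149 in Kdm6b-null and 1977 and 2380 in wild type. The log2 fold changes were 0.06 in XY, with a 95% interval of -0.21 to 0.33, and 0.03 in XX, with an interval of -0.28 to 0.34 (limma), so a change of as much as 1 log2 unit lies outside both. The gene is annotated at 7:130162451-133123350 on the minus strand (GRCm38), a span that holds or touches 69 other annotated genes, so its reads could be shared with some of them.

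Dmrt1, a zinc-finger DM domain transcription factor, was the other member besides Sry whose XY groups did not overlap. It had 53.6 and 59.7 normalized counts in XY Kdm6b-null, against 126 and 137 in XY wild type. The null libraries stood at 40.9% and 45.5% of the wild type mean, and the replicates of each genotype lay close together. The log2 fold change was -1.20 with a standard error of 0.20 and a 95% interval of -1.71 to -0.69 (limma adjusted p = 0.42, before adjustment 0.00147). The authors' deposited table gave -1.21 with a DESeq2 adjusted p of 0.12. Leaving out any 1 XY library kept the log2 fold change between -1.27 and -1.12.

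In XX gonads, in a table normalized separately, Dmrt1 had 41.9 and 25.3 normalized counts in Kdm6b-null and 42.7 and 36.4 in wild type. The XX groups overlapped, and the log2 fold change was -0.27 with a 95% interval of -1.18 to 0.64 (limma). The XY effect minus the XX effect was -0.93 with an interval of -1.86 to 0.0085 (limma adjusted p = 0.60). Dmrt1 is also expressed in germ cells. Of 8 germ cell markers, 7 had a log2 fold change above 0 in XY (median 0.36) and 2 in XX (median -0.28). In XY the groups of all 8 overlapped (all genes not overlapping, 16.3% lower and 16.6% higher). In XX, 2 did not overlap with Kdm6b-null lower (all genes, 22.5%) and 1 with Kdm6b-null higher (all genes, 27%). The median log2 level of the list relative to the wild type mean was 1.02 in XX wild type library 1 and -1.02 in library 2. The part of germ cells in the values of Dmrt1 was not tested. Dmrt1 lies at 19:25505618-25604329 on the plus strand (GRCm38), with no other annotated gene over it.

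Amh and Ptgds, the products of differentiating Sertoli cells, were close to the limit of detection. Amh had 15.6 and 10.3 normalized counts in XY Kdm6b-null, against 10.9 and 14.0 in XY wild type. Its XX values were 14.9 and 9.09 in Kdm6b-null, against 7.76 and 13.2 in wild type. Its groups overlapped in both sexes, and the 95% intervals of its log2 fold changes were wide, from -0.99 to 1.06 in XY and from -1.15 to 1.53 in XX. Ptgds had 1 count in each XY Kdm6b-null library, against 7 and 1 in XY wild type. The XX counts of Ptgds were 0 and 1 in Kdm6b-null, against 16 and 2 in wild type. It did not reach the minimum mean of 10 normalized counts in either sex and was not tested. The 16 counts came from the library high in adrenal cortex markers. Amh lies at 10:80805248-80807648 on the plus strand and Ptgds at 2:25466709-25470046 on the minus strand (GRCm38).

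The levels of the genes can be set beside each other only per length of exon. Per kilobase, Fgfr2 had 239 normalized counts in XY Kdm6b-null, against 229 in XY wild type, while Sox9 had 183 and 203 in the same groups. Sry followed with 10.8 in XY Kdm6b-null, against 55.2 in XY wild type, while Dmrt1 had 21.8 and 50.5. Sox8 stood at 32.3 and 37.6, Fgf9 at 17.2 and 18.2, Amh at 7.75 and 7.44 and Ptgds at 0.608 and 2.40, in the same order of groups. In wild type XY gonads Sry and Dmrt1 thus stood next to each other between Sox9 and Sox8, whereas in XY Kdm6b-null gonads the mean of Sry stood below those of Sox8, Dmrt1 and Fgf9. Some neighbours in this order did not differ beyond their spread: Sry at 55.2 ± 9.76 and Dmrt1 at 50.5 ± 2.98 in XY wild type, and Sry at 10.8 ± 7.94 and Fgf9 at 17.2 ± 0.656 in XY Kdm6b-null (SD, n = 2 each). In XX, Fgfr2 had 214 normalized counts per kilobase in Kdm6b-null and 211 in wild type, Sox9 212 and 155, Sox8 43.6 and 37.1, Fgf9 16.6 and 36.6, Dmrt1 12.9 and 15.2, Amh 7.20 and 6.26, and Ptgds 0.306 and 5.32 in the same order of groups. The exon lengths are those of GENCODE M21, which need not be the annotation the counts were made with.

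Across the set, 7 of the 8 genes were tested in XY gonads. Of these, 5 had a log2 fold change below 0 (all genes, 50%), and the median was -0.20, against -0.00 over all 16821 genes tested. Sry and Dmrt1 were the 2 members whose groups did not overlap with Kdm6b-null lower (all genes, 16.3%), and the same 2 had an unadjusted limma p under 0.05 with Kdm6b-null lower (all genes, 2.85%). None passed at an adjusted p of 0.05. In XY limma called 0% of all genes at that threshold and 834 genes, or 4.96%, at an unadjusted p under 0.05. The authors' deposited table called 72 of 17890 genes, or 0.402%, with Kdm6b-null lower in 0.279%, and no member was among them. In XX gonads 6 members were tested and 2 had a log2 fold change below 0 (all genes, 49.9%). Of the tested members, Fgf9 alone did not overlap with Kdm6b-null lower (all genes, 22.5%), Sox9 alone with Kdm6b-null higher (all genes, 27%), and Fgf9 alone had an unadjusted limma p under 0.05 with Kdm6b-null lower (all genes, 4.65%). In XX limma called 0% of 17028 genes after adjustment and 2383, or 14%, before it. The authors' deposited table called 2.77% in XX, with Kdm6b-null lower in 0.823%, and no member was among them. For the difference between the sexes limma called 0% of genes after adjustment and 1443, or 8.35%, before it.

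**Figure D2:**
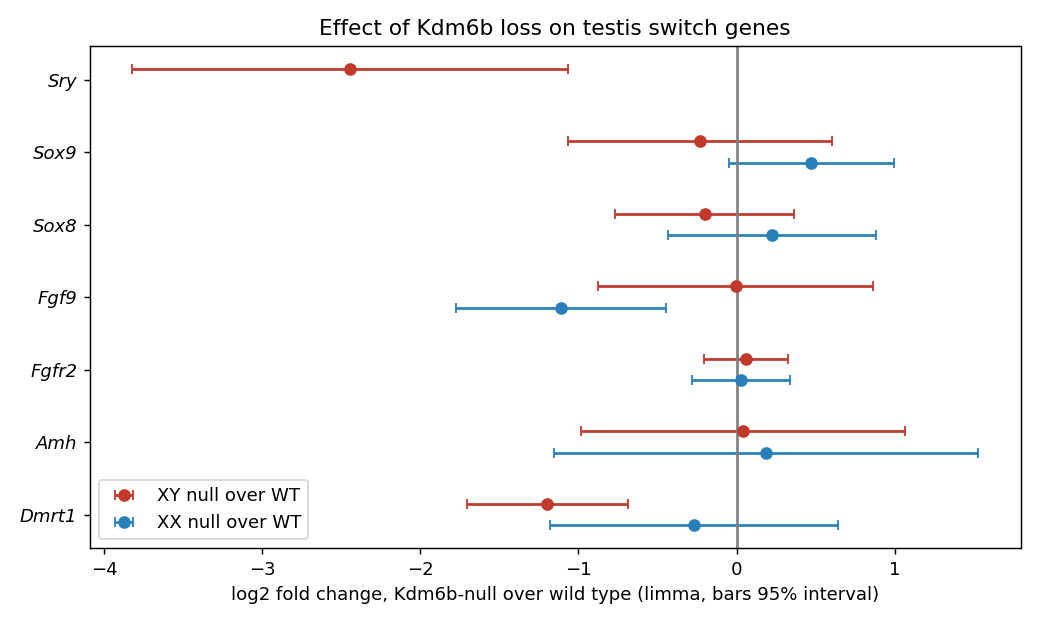
Log2 fold change (horizontal axis, log2 of normalized count + 1) of Kdm6b-null over wild type for each tested member, XY above XX, with 95% limma intervals. The XY intervals of Sry (-3.82 to -1.07) and Dmrt1 (-1.71 to -0.69) and the XX interval of Fgf9 (-1.78 to -0.44) lie below 0, and all other intervals span 0.

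The genes upstream of Sry were examined next, as 17 known activators and regulators. Of these, 9 had a log2 fold change below 0 in XY gonads (all genes, 50%) and 8 above 0, and 4 had an unadjusted limma p under 0.05, all with Kdm6b-null lower (all genes, 2.85%). Lhx9, a LIM homeobox gene of the early gonad, had 930 and 1086 normalized counts in XY Kdm6b-null and 1699 and 2228 in XY wild type, groups that did not overlap. Its log2 fold change was -0.95 with a standard error of 0.15 (limma adjusted p = 0.36). Its DESeq2 adjusted p in the authors' deposited table was 3.4e-05. Nr5a1, the nuclear receptor SF1, an activator of Sry, was at 480 and 882 normalized counts in XY Kdm6b-null, against 1114 and 1257 in XY wild type. Its log2 fold change was -0.86 (limma adjusted p = 0.90, deposited DESeq2 adjusted p = 0.28). Gata4, a zinc-finger activator of Sry, and Gadd45g, which works through MAP3K4 and p38 to raise GATA4 activity, had log2 fold changes of -0.68 and -0.43 in XY. Their deposited DESeq2 adjusted p-values were 0.36 and 0.9999.

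In XX, 16 of the same 17 regulators were above 0 with a median log2 fold change of 0.27, beside a median of -0.00 in XY. Of these, 5 had an unadjusted limma p under 0.05 with Kdm6b-null higher (all genes, 9.34%). The XX log2 fold changes were 0.01 for Lhx9, 0.41 for Nr5a1, 0.33 for Gata4 and 0.19 for Gadd45g. Of the differences between the sexes, 14 were negative (all genes, 51.7%), 6 of these had an unadjusted limma p under 0.05 (all genes, 5.61%), and 0 passed after adjustment.

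Downstream of Sry and Sox9, 14 of 17 further testis and Sertoli genes were tested in XY. All 14 had a log2 fold change below 0 (all genes, 50%), with a median of -0.61, and 7 had an unadjusted limma p under 0.05 with Kdm6b-null lower (all genes, 2.85%). Inhbb, which encodes a subunit of activin B, had 167 and 274 normalized counts in XY Kdm6b-null, against 555 and 611 in XY wild type. Its log2 fold change was -1.44 with a standard error of 0.24 (limma adjusted p = 0.42). Its DESeq2 adjusted p in the authors' deposited table was 6.1e-05. Cbln4, a secreted protein marking pre-Sertoli cells, had 41.0 and 25.7 normalized counts in XY Kdm6b-null and 88.0 and 111 in XY wild type. Its log2 fold change was -1.57 (limma adjusted p = 0.63, deposited DESeq2 adjusted p = 0.11). The log2 fold changes of Inha, which encodes the inhibin alpha subunit, and of Cyp26b1, the enzyme that breaks down retinoic acid, were -0.59 and -0.62. Their deposited DESeq2 adjusted p-values were 0.65 and 0.10. In XX, 7 of the 14 tested genes were below 0 and 7 above, with a median of 0.00. These genes were chosen with earlier results of these data known, so their direction adds no independent evidence.

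Of 12 genes of the opposing ovary pathway, 11 were tested in XY. Of these, 8 had a log2 fold change below 0 (all genes, 50%), with a median of -0.35, and 2 had an unadjusted limma p under 0.05 with Kdm6b-null lower (all genes, 2.85%). Those 2 were Nr0b1, which encodes the orphan receptor DAX1, at -0.84 and Runx1, a transcription factor of fetal granulosa precursors, at -0.58. Both are also among the markers of supporting cells given below, so they do not stand for the ovary pathway alone. Foxl2, a transcription factor of granulosa cells, was too low to be tested and is given here only because of its values. It lay the other way in XY, with 6.83 and 11.3 normalized counts in Kdm6b-null and 1.98 and 1.99 in wild type. Its DESeq2 p before adjustment in the authors' deposited table was 0.13 there. In XX it was lower in Kdm6b-null, at 2.52 ± 2.15 normalized counts, against 8.81 ± 6.74 in wild type (SD, n = 2 each). In the FGF pathway, 0 of 11 further receptors and ERK feedback genes had an unadjusted limma p under 0.05 in XY. The smallest p there was that of Spry4, a feedback inhibitor of the pathway, with a log2 fold change of -0.49. In XX Spry4 had 143 ± 14.9 normalized counts in Kdm6b-null and 223 ± 3.09 in wild type (SD, n = 2 each). Its log2 fold change was -0.64 (limma adjusted p = 0.27, deposited DESeq2 adjusted p = 0.26). Fgfr3 went the other way in XX, at 0.75 (limma adjusted p = 0.26, deposited DESeq2 adjusted p = 0.011). The list as a whole was split in XX, 5 below 0 and 6 above. An unadjusted limma p under 0.05 was seen for 2 genes with Kdm6b-null lower (all genes, 4.65%) and 2 higher (all genes, 9.34%).

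**Figure D3:**
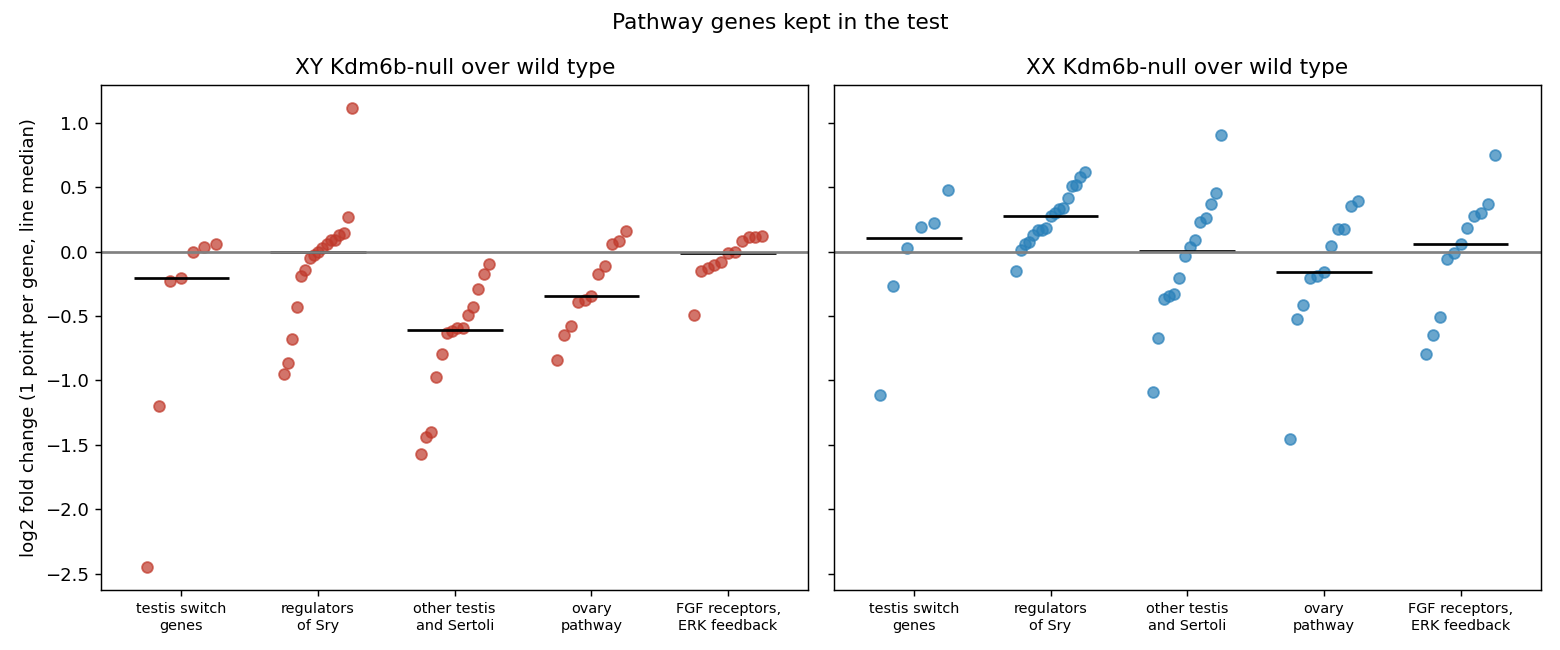
Log2 fold change (log2 of normalized count + 1) of Kdm6b-null over wild type for the tested switch genes and the 4 pathway lists, XY left and XX right, each point a gene and each black line the median of its list. The further testis and Sertoli genes lie wholly below 0 in XY (median -0.61) and around 0 in XX, and the regulators of Sry lie mostly above 0 in XX (median 0.27).

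Markers of the supporting and early somatic cells of the gonad stood on the same side as Sry and Dmrt1 in XY. All 8 of these markers, all of them already counted above (Sox9 as a switch gene, Gata4, Nr5a1, Lhx9, Wt1 and Emx2 among the regulators of Sry, Runx1 and Nr0b1 in the ovary pathway), had a log2 fold change below 0 in XY, with a median of -0.63. Their summed level was 9761 and 13640 normalized counts in XY Kdm6b-null, against 14040 and 15770 in XY wild type. In XX, 7 of the 8 were above 0 with a median of 0.34, beside Sox9, and the sums were 10820 and 10640 in XX Kdm6b-null and 9349 and 7978 in XX wild type. Macrophage markers were above 0 in XY for 6 of 7 genes and below 0 in XX for 6 of 7. Endothelial markers were below 0 in XY for 6 of 7 genes, on the side of Sry and Dmrt1, and above 0 in XX for 7 of 7. Neural crest and neuron markers were below 0 for 5 of 6 genes in XY and 6 of 6 in XX. Over all genes, 50% were below 0 in XY and 49.9% in XX. Adrenal cortex markers were below 0 in XX for 5 of 6 genes, although their XX Kdm6b-null sums lay between those of the XX wild type libraries. Erythroid markers were above 0 in XY for 6 of 6 genes and below 0 in XX for 5 of 6. The XY direction rested on Kdm6b-null library 2, with a median log2 level relative to wild type of 1.24, against -0.30 in library 1. No supporting, macrophage or endothelial marker of these lists was at 0 in any library. Endothelial markers summed to 15230 and 15000 normalized counts in XX Kdm6b-null, against 10380 and 11380 in XX wild type, and macrophage markers to 2521 and 2659 in XY Kdm6b-null, against 1947 and 2072 in XY wild type. The part of these cell types in the values of Sry, Dmrt1, Sox9 and Fgf9 was not tested.

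**Figure D4:**
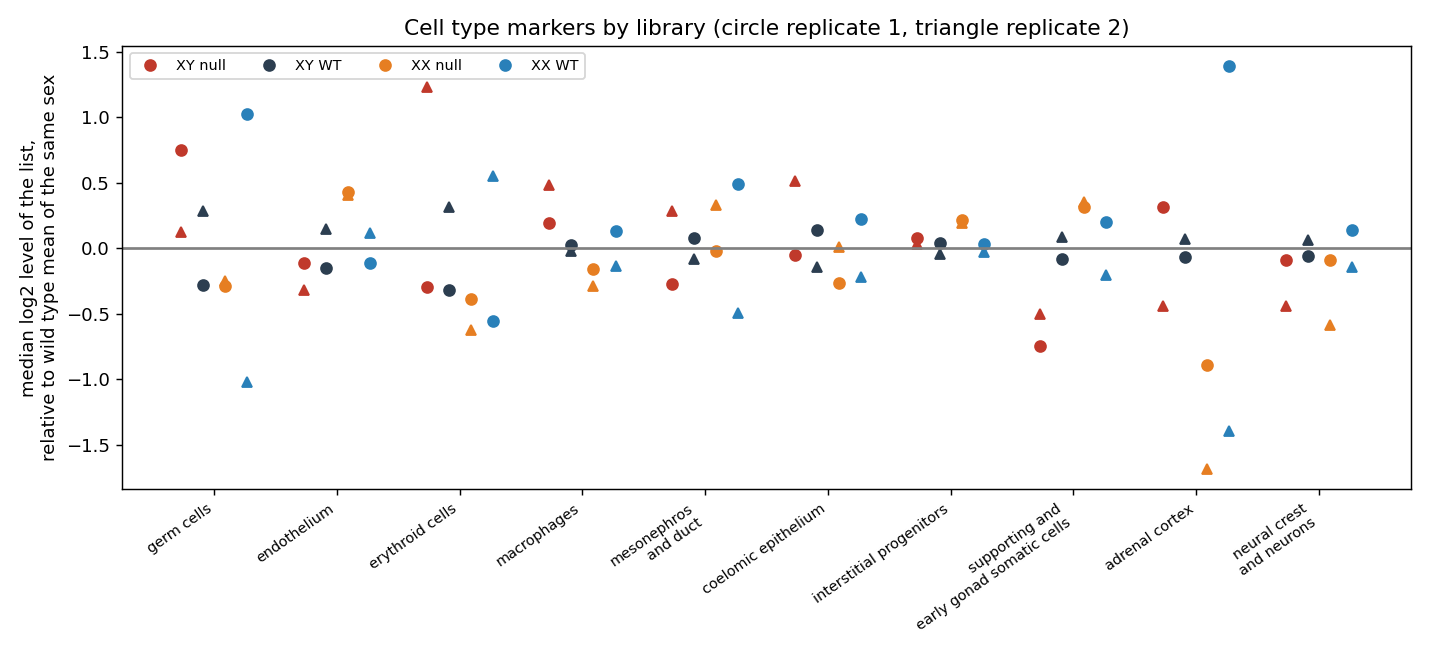
Median over each list of cell type markers of the log2 level relative to the wild type mean of the same sex (vertical axis, log2), by library, XY Kdm6b-null, XY wild type, XX Kdm6b-null and XX wild type left to right within a list, circles replicate 1 and triangles replicate 2; both wild type libraries of a sex lie at equal distances from 0 by construction. XX wild type library 1 stands apart for adrenal cortex and germ cell markers, and XY Kdm6b-null library 2 for erythroid markers.

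The genes whose profile over the 4 XY libraries was nearest to that of Sry, by Euclidean distance of centred log2(normalized count + 1) among 14316 genes, were Mmp9 at 0.41, Klk1 at 0.59, Scrt2 at 0.67, Atp2b3 at 0.70 and Npy at 0.74. Of these, Mmp9 and Atp2b3 remained among the 5 nearest with a pseudocount of 10, where Cbln4, Kdm6b and Tgm3 came in. Klk1, Scrt2, Atp2b3 and Npy, 4 of the 5, also had both XX Kdm6b-null libraries below both XX wild type libraries (all genes, 22.5%). Mmp9 did not. The 5 were picked by their XY values, and no share was computed for genes with a like fall in XY, so the share over all genes is no measure for them. Klk1 rested on few counts in XX, with 3.99 and 4.04 normalized counts in Kdm6b-null, against 9.70 and 7.08 in wild type. It did not reach the minimum mean of 10 there, so that share does not cover it. Atp2b3 had 26.3 and 17.5 normalized counts in XY Kdm6b-null, against 110 and 119 in XY wild type. In XX it had 21.9 and 12.1 in Kdm6b-null, against 66.9 and 39.5 in wild type. The genes nearest to Sox9 over all 8 libraries were Synm at 0.41, Vegfc at 0.43, Ppp1r14a at 0.45, Magel2 at 0.46 and H60b at 0.47, and the same 5 were nearest with a pseudocount of 10. These distances describe 4 and 8 libraries that share 1 normalization per sex, and carry no test.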

How the data were processed

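Whole gonads at embryonic day 11.5 were measured by paired 100-base sequencing of polyadenylated RNA, per the labels' protocols, which speak of 4 samples where 8 are listed. The authors' tools, per the submitters' processing notes, included DESeq2 2.11.40.8, featureCounts 2.0.8, STAR 2.7.11 and cutadapt 4.9, and the build was GRCm38 (mm10). Annotation release, filters and strand setting are not given in the sources used, although the kit marks strand with dUTP, per the labels. The deposited signal, a normalized count for each gene, fills 1 table per sex, each normalized separately by the authors. The authors' deposited DESeq2 tables give a log2 fold change, its standard error, a Wald score (not used) and p-values before and after adjustment. In each library 100% of nonzero values were whole multiples of 1 step (tolerance 1e-06), read as 1 count for depths and intervals.

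Values were tested as log2(normalized count + 1) by limma 3.58.1 (R 4.3.3), with a variance trend, genes with a mean of at least 10 over the 4 libraries of a sex, and Benjamini-Hochberg adjustment at 0.05. Each sex was fitted alone, and the difference between sexes in 1 fit of 8 libraries with a mean of at least 10 in either table. Depths and intervals rest on that reading of the step. No model of counts was run, because a separate screen did not accept the columns whose steps lie nearest to 1 as recovered reads. Only the XY fit was run on simulated counts. These held known changes in genes of high counts alone, and no differences between libraries beyond random spread. That run does not show how the fits behave for low genes such as Sry, or where a library stands apart. An exact permutation test of 2 against 2 libraries was not used, since it cannot reach the threshold.

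The members and lists were chosen with earlier results of these data known. The text names the 8 members, Kdm6b, up to 4 genes per pathway list with the smallest limma p in XY among those with an unadjusted p under 0.05 (otherwise the 1 smallest), and the 5 genes nearest to Sry and Sox9. Cell type marker genes were named where a library stood apart. Foxl2 and Fgfr3 were named outside that rule, for their values. Alternatives were other pseudocounts, filters, scalings and variance settings, a replicate block, 1 joint fit and leaving out each library.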

Additional observations from a re-analysis of the deposited data

Results flagged for a closer look

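The effect of Kdm6b loss on Fgf9 differed between the sexes before adjustment: the XY log2 fold change minus the XX log2 fold change was 1.10 (unadjusted p = 0.0494 and adjusted p = 0.60 in limma). Fgf9 had 78.0 and 82.3 normalized counts in XY Kdm6b-null, against 112 and 57.8 in XY wild type. In XX it had 68.8 and 85.9 in Kdm6b-null, against 138 and 202 in wild type. Of all genes, 8.35% had an unadjusted p under 0.05 for this difference in either direction, and none passed after adjustment. Leaving out 1 library at a time gave 0.63 to 1.57.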

How the results depend on the processing

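With 2 libraries per group, the number of genes called depended on the setting. In XY limma called 0 genes, 23 with the replicate block, 1 without the variance trend, and 0 to 2 when 1 library was left out. In XX it called 0, 2 with the replicate block, 10 with all 8 libraries in 1 fit, and 0 to 3550 when 1 library was left out (621 without XX wild type library 1, 3550 without XX wild type library 2). For the difference between the sexes it called 0, and 0 to 44 when 1 library was left out (44 without XX wild type library 2). The causes were not tested. The replicate numbers pair the libraries in name only: the correlation of same-numbered deviations was 0.24 in XY and -0.06 in XX, and under the block no member was called (limma adjusted p = 0.22 for Sry, 0.19 for Dmrt1 and 0.20 for Fgf9 in XX). Of the 5 genes nearest to Sry, 2 were shared at a pseudocount of 10.

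Some members near 0 changed sign. Fgf9 in XY was 0.039 under quantile normalization, and Fgfr2 in XX was -0.037 with equal library totals and -0.11 under quantile normalization. With 1 library left out, the XY log2 fold change ran from -0.75 to 0.29 for Sox9, -0.43 to 0.023 for Sox8, -0.47 to 0.46 for Fgf9, -0.044 to 0.16 for Fgfr2 and -0.24 to 0.32 for Amh. In XX it ran from -0.017 to 0.46 for Sox8, -0.11 to 0.16 for Fgfr2, -0.16 to 0.53 for Amh and -0.62 to 0.084 for Dmrt1. The difference between the sexes ran from -0.10 to 0.17 for Fgfr2 and -0.50 to 0.20 for Amh. Sry and Dmrt1 in XY and Sox9 and Fgf9 in XX kept their direction under every alternative that gave them a value. Sry has none with a minimum mean of 50, which it does not reach. Of the members, Fgf9 in XX passed without XX wild type library 1 (log2 fold change -1.38, limma adjusted p = 0.035) and Sox9 in XX without XX wild type library 2 (0.76, limma adjusted p = 0.0067). Other scalings moved the median of all genes by at most 0.06 on the log2 scale. Counting error limits Sry, Amh and Ptgds, which rest on few counts.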
